A study of Amaranthus powellii with 13 samples.

Results

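In leaves of green pigweed (Amaranthus powellii), 274 gene models kept nearly the same level in all 12 plants sequenced, whichever population the plant came from and whether or not it had been sprayed with MCPA. They were chosen by the measured values themselves. A gene model was counted as stable when its mean level over the 12 plants was at least 50 CPM (the count scaled to a common library size, itself corrected with the trimmed mean of M values, TMM), its mean in the untreated plants was under 1000 CPM, and its highest CPM was under 1.4 times its lowest over all 12 plants. The 274 were 8.24% of the 3324 gene models within the level limits, 1.35% of the 20245 gene models with any count and 1.15% of the 23820 listed. Because these values made the choice, no comparison among the 12 plants is a test of the stable gene models, and what follows describes them.

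Genes that every cell keeps active, for protein synthesis and turnover, RNA processing, transport within the cell and energy supply, are often called housekeeping genes. Some of them are used as reference genes: the level of a gene of interest is divided by theirs, so a reference must not itself respond to the treatment or differ between the plants compared. MCPA is a synthetic auxin, a herbicide that acts through the receptors and transcriptional repressors of the plant hormone auxin, and many leaf transcripts change soon after such a herbicide reaches the leaf.

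The plants came from population 501, grown from seed of survivors of MCPA through repeated rounds of spraying and open pollination and resistant to MCPA, and from the susceptible population 511. RT plants (501) and ST plants (511) were sprayed with MCPA at 1225 g a.e. per ha, while RU plants (501) and SU plants (511) were untreated. Each of the 4 groups had 3 separate plants, named here by their label numbers, and 1 leaf of each was taken 6 h after application and sequenced as a stranded mRNA library. Population 501 is open-pollinated and not an inbred line, and plants were picked for sequencing by how well they represented their group once survival had been scored. Values by plant are given for RT S11, S14 and S110, for ST S13, S16 and S112, for RU S13, S18 and S118, and for SU S12, S14 and S116, always listed so. In whole leaves, fewer cells of a type and less RNA per cell cannot be told apart.

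The reads were aligned to the genome of smooth pigweed (Amaranthus hybridus), another species, and totals ran between 22629698 and 29999982 counts per library. The deposited table does not pair its identifiers with gene names, so no role is given here to any gene model, the leaf label could not be checked against marker genes, and no sequence is shown. Some libraries stood apart from the rest over all gene models: the highest correlation of log2 CPM with any other library was 0.8837 for ST S13 and 0.9144 for SU S116, against at least 0.9501 for every other library. Over the stable gene models alone these 2 libraries were the least like any other, at 0.9669 and 0.9734.

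The 6 gene models with the smallest spread show how flat a stable gene model was. Ah.03g138770, the flattest, had 102, 109 and 108 CPM in RT and 102, 105 and 109 CPM in ST plants, against 107, 98.9 and 108 CPM in RU and 103, 98.9 and 108 CPM in SU plants. No group stood apart: the lowest plants were SU S14 and RU S18 and the highest was ST S112, and the range of each group overlapped that of every other. Its mean was 104.9 ± 3.77 CPM (SD, n = 12), its highest level was 1.1 times its lowest, and between 2186 and 3467 reads per library lay behind it.

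Ah.10g030750 had 139, 133 and 141 CPM in RT and 149, 137 and 133 CPM in ST plants, against 138, 149 and 145 CPM in RU and 146, 135 and 139 CPM in SU plants. Its 2 highest plants were RU S18 and ST S13 and its 2 lowest were RT S14 and ST S112, so that both ends of the range held an ST plant. The mean was 140.4 ± 5.75 CPM (SD, n = 12).

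Ah.15g095630 had 88.3, 93.4 and 87.9 CPM in RT and 97.9, 93.0 and 87.4 CPM in ST plants, against 92.5, 86.0 and 85.7 CPM in RU and 86.8, 95.5 and 89.6 CPM in SU plants. It was highest in ST S13 and lowest in RU S118, and the 4 groups overlapped. Ah.04g162600 had 103, 103 and 109.8 CPM in RT and 102, 109 and 116.4 CPM in ST plants, against 109, 114 and 115 CPM in RU and 118.1, 111 and 113 CPM in SU plants. Here 2 RT plants and ST S13 were the lowest and SU S12 the highest, and the SU plants, all at 111 CPM or more, did not overlap the RT plants.

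Ah.02g128810 had 92.5, 96.5 and 99.5 CPM in RT and 107, 95.1 and 91.1 CPM in ST plants, against 95.3, 99.0 and 99.3 CPM in RU and 100.3, 97.6 and 99.4 CPM in SU plants. ST S13 and ST S112 were its highest and lowest plants, so the whole spread of this gene model lay within 1 group. Ah.03g137050 had 63.0, 60.6 and 53.4 CPM in RT and 55.8, 61.7 and 61.8 CPM in ST plants, against 57.9, 59.6 and 60.9 CPM in RU and 56.0, 58.2 and 56.5 CPM in SU plants. Its highest and lowest plants, RT S11 and RT S110, were again of 1 group. In all, 31 of the 274 stable gene models had both their highest and their lowest plant in the same group, and the rest had them in different groups. The share over all gene models was not counted, so nothing is read from this number.

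**Figure D1:**
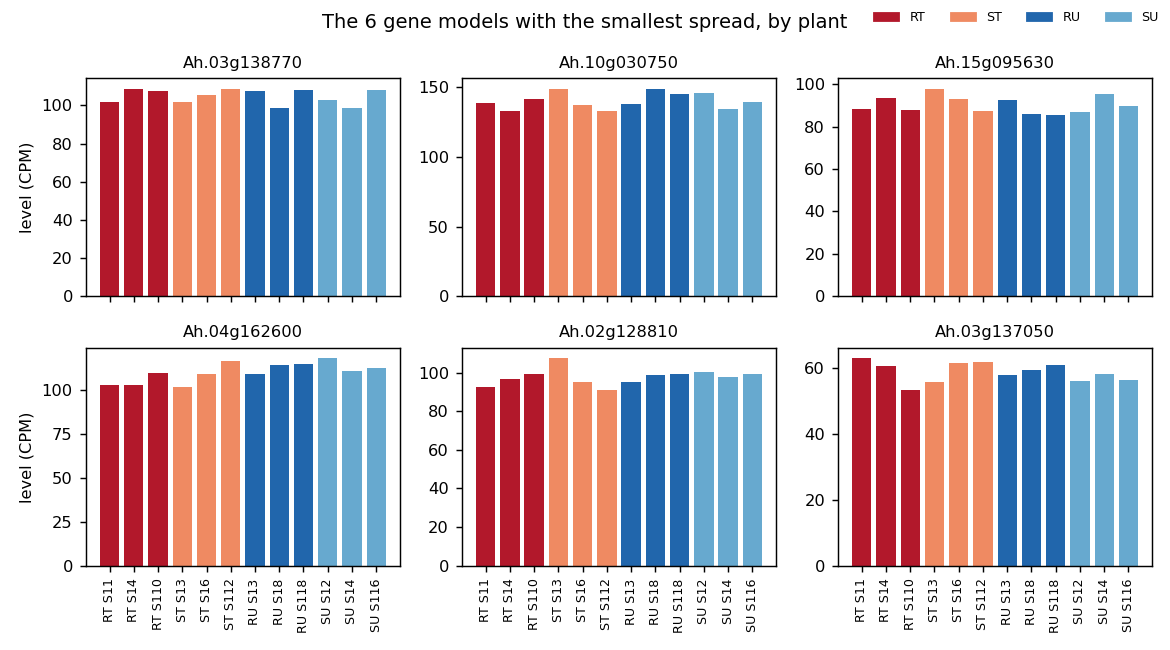
Level (CPM, vertical axis from 0) of the 6 gene models with the smallest ratio of highest to lowest level, 1 bar for each of the 12 plants, colored by group. Bars within a panel are close to level, as for Ah.03g138770, where they run between 98.9 and 109 CPM.

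A ratio of 2 gene models within a library does not depend on how libraries are scaled. For Ah.10g030750 over Ah.02g128810, the pair with the least variable ratio among the 6 flattest, the ratio of CPM was 1.5, 1.38 and 1.42 in RT, 1.39, 1.44 and 1.46 in ST, 1.45, 1.51 and 1.46 in RU, and 1.46, 1.38 and 1.4 in SU plants. It averaged 1.44 ± 0.0436 (SD, n = 12), and every group overlapped every other. Across the 274 stable gene models, the SD of the log2 ratio to another stable gene model, averaged over its partners, had a median of 0.17 and ran between 0.13 for Ah.03g138770 and 0.22.

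The rule admitted few gene models at high levels. Stable gene models had a median mean level of 81.96 CPM (range 50.1 to 384), against 92.3 CPM for the other 3050 gene models within the level limits. Between 50 and 200 CPM, the stable share by level class lay between 9.19% and 10%, then it was 4.33% (19 of 439) between 200 and 400 CPM and 0 of 173 above 400 CPM. Of the gene models within the limits, 185 lay above the most abundant stable one. None of the 127 gene models with an untreated mean of 1000 CPM or more was under the ratio limit either, where the smallest ratio was 1.48.

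The most abundant stable gene model, Ah.02g126180, had 362, 355 and 339 CPM in RT and 357, 351 and 379 CPM in ST plants, against 419, 449.6 and 423 CPM in RU and 397, 368 and 413 CPM in SU plants. The 3 RU plants were the highest, and all 3 stood above every RT plant and every ST plant, while the SU plants overlapped the ST plants. Ah.09g232380 had 343, 328 and 398 CPM in RT and 421, 353 and 309 CPM in ST plants, against 386, 371 and 385 CPM in RU and 354, 383 and 363 CPM in SU plants. Its highest and lowest plants, ST S13 and ST S112, were both ST plants, and all 4 groups overlapped.

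Ah.01g020550 had 349, 322 and 344 CPM in RT and 286, 387 and 399 CPM in ST plants, against 353, 359 and 356 CPM in RU and 348, 334 and 370.3 CPM in SU plants. ST plants again held both ends, with ST S13 the lowest and ST S112 the highest. These 3 gene models averaged 384 ± 34.9, 366 ± 31.2 and 351 ± 29.4 CPM (SD, n = 12 each), with ratios of 1.33, 1.36 and 1.4, and thus sat nearer the limit than the 6 flattest.

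**Figure D2:**
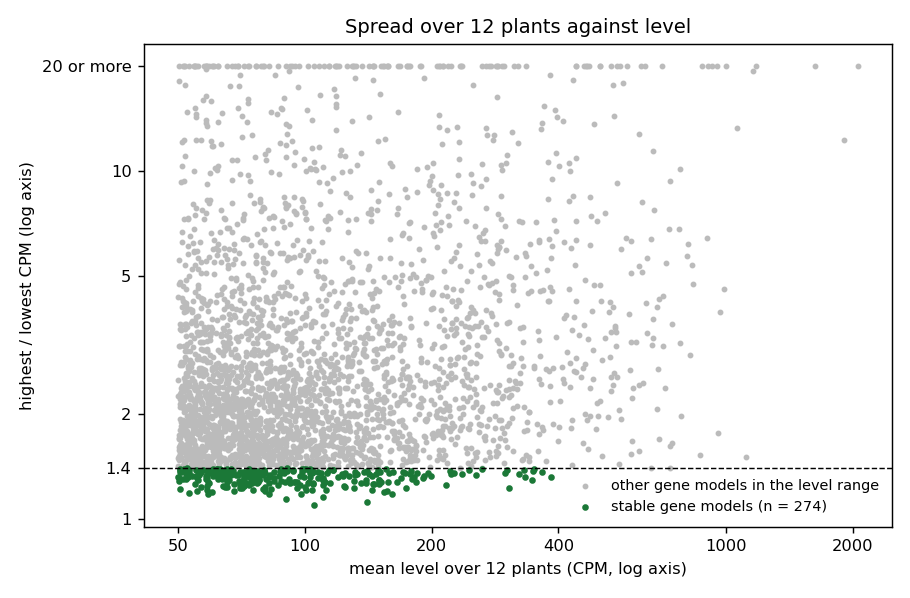
Ratio of highest to lowest CPM over 12 plants (vertical, log axis, values of 20 or more drawn at 20) against mean level (CPM, horizontal, log axis) for the 3324 gene models within the level limits. Green points are the 274 stable gene models, gray points the other 3050, and the dashed line is the limit of 1.4. The green points end at 384 CPM.

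The stable gene models had no gap around them. By their ratio of highest to lowest level, 1 lay under 1.1, 10 lay between 1.1 and 1.2, 82 between 1.2 and 1.3 and 181 between 1.3 and 1.4. The next class, 1.4 to 1.5, held a further 196 gene models that the rule left out. Just inside the limit were Ah.03g148970, with 77.2 CPM in SU S116 and 108 CPM in RT S14, and Ah.04g152270, with 45.6 CPM in RT S14 and 63.8 CPM in SU S116, both at a ratio of 1.399. Just outside were Ah.09g237720, with 54.6 CPM in RU S18 and 76.5 CPM in RT S14, and Ah.13g073860, with 49.95 CPM in ST S13 and 69.97 CPM in SU S14, both at 1.401.

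Counting error was a small part of what spread was left. The coefficient of variation (CV) over 12 plants had a median of 8.66% in the stable gene models (3.59% to 13.1%), against 26.6% in the other 3050. The part that the read counts alone would give had a median of 2.17% in the stable gene models and 2.18% in the others, and the sets were close to each other in this. Counting error made up a median of 6.16% of the variance of a stable gene model (0.809% to 28.4%). Every stable gene model had at least 972 reads in every library.

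Within a group of 3 plants, the median ratio of highest to lowest level of the stable gene models was 1.11 in RT, 1.17 in ST, 1.09 in RU and 1.14 in SU plants. The others had 1.23, 1.55, 1.18 and 1.29 in the same order of groups. The rule capped these ratios in the stable gene models, so nothing is read from their lower values. In both sets ST plants differed most among themselves and RU plants least. Differences between the 4 group means made up a median of 46.6% of the variance of a stable gene model, against 67.6% for the others. With 3 plants per group, part of this share would arise even if the groups did not differ. That part was not taken off.

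The 2 libraries that stood apart held many of the extremes, more often the highest level than the lowest. Of the 274 stable gene models, 94 (34.3%) were highest in ST S13 or SU S116, which were 2 of the 12 plants (16.7%), and 59 (21.5%) were lowest there. By plant, ST S13 was highest for 51 and lowest for 36, and SU S116 was highest for 43 and lowest for 23. RU S18 (34), RT S14 (32), SU S12 (28) and ST S16 (27) were each lowest for more than SU S116 was. At least 1 end of the range lay in ST S13 or SU S116 for 148 (54%). The 16.7% compares with a single end only, because 54% counts either end. The same counts were not made for the other gene models. Without both plants the median ratio was 1.28 in the stable gene models, against 1.33 with them, and 1.94 in the others, against 2.39 with them. The rule applied to the remaining 10 plants gave 513 gene models, 260 of them among the 274.

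Which gene models counted as stable also rested on the TMM correction. Before it, the 274 together took 2.77%, 2.74% and 3.05% of library counts in RT, 3.77%, 3.52% and 3.01% in ST, 2.45%, 2.63% and 2.59% in RU, and 2.71%, 2.57% and 3.21% in SU plants. The highest shares were those of ST S13, ST S16 and SU S116, and every RT plant lay above every RU plant. The highest share was 1.54 times the lowest, whereas the summed CPM after correction lay between 28332 (SU S14) and 29544 (SU S116), a ratio of 1.04. The rule held the 274 level after correction, so their uncorrected share follows the TMM factor of each plant. This factor was 1.288 in ST S13, which had the highest share, and 0.8434 in RU S13, which had the lowest. Without the correction, 61 gene models met the rule, 19 of them among the 274.

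The uncorrected share moved against that of the most abundant gene models. The 127 with an untreated mean of at least 1000 CPM took 34.1%, 34.4% and 31% of counts in RT, 17.3%, 23.8% and 32.4% in ST, 42.7%, 40.6% and 41.8% in RU, and 39%, 41.2% and 33.5% in SU plants. They were lowest in ST S13 and ST S16, where the share of the 274 was highest, and highest in RU S13, where that share was lowest. The part of these 127 in the uncorrected shares was not tested. Any set held level by the TMM correction would have much the same uncorrected pattern, so nothing about the 274 is read from it.

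**Figure D3:**
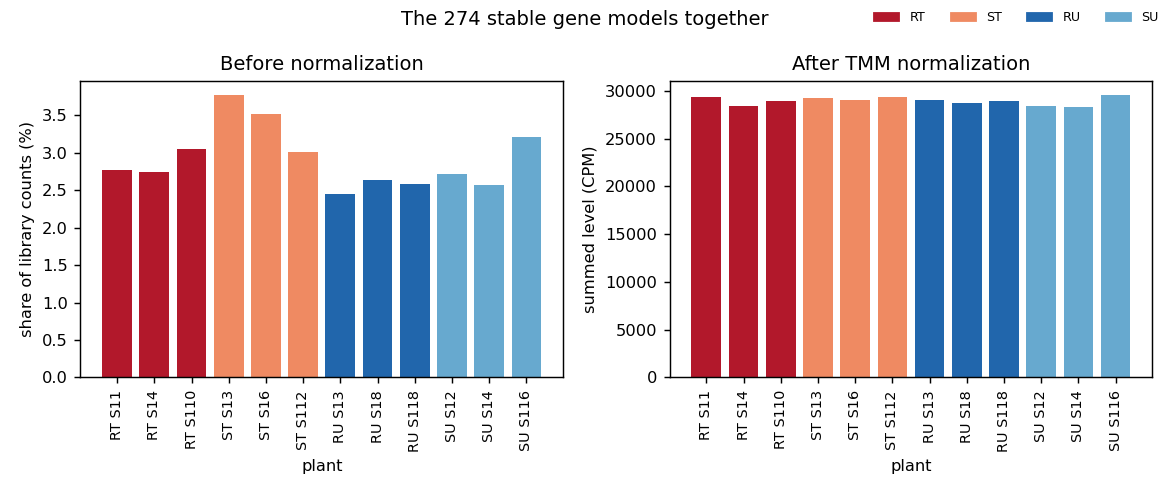
Share of library counts before normalization (left, %) and summed level after TMM normalization (right, CPM) of the 274 stable gene models together, 1 bar per plant, colored by group. The left bars run between 2.45% and 3.77%, and the right bars between 28332 and 29544 CPM.

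The question of the MCPA comparisons was which gene models differed between sprayed and unsprayed plants of a population. In RT vs RU, edgeR's quasi-likelihood test on all 16304 gene models with enough counts, with Benjamini-Hochberg adjustment at 0.05, called 10 stable gene models higher, 3.65% of the 274 (background 15.6% of all tested), and 3 lower, 1.09% (background 14.1%). In ST vs SU it called 4 higher, 1.46% (background 11.5%), and 0 lower (background 10.1%). An unadjusted p under 0.05 in either direction was found for 37 of the 274 in RT vs RU (background 40.9%) and for 27 in ST vs SU (background 35.8%). The rule capped these differences, so nothing is read from the lower shares. The calls depended on single plants: in RT vs RU, 0 remained without RU S118 (background 19.5%), while 27 were called without ST S13 (background 37.9%) and 37 without both ST S13 and SU S116 (background 44.8%). In ST vs SU, 0 remained without SU S12 (background 12%) and 0 without SU S14 (background 15.4%), and 8 were called without ST S13 and SU S116 (background 22.9%).

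The called differences were small in size. They measured 0.26 to 0.35 on the log2 scale in RT vs RU and 0.31 to 0.36 in ST vs SU. Of the 274, 259 were called in none of the 4 contrasts between groups, 11 in RT vs RU alone, 2 in ST vs SU alone and 2 in both MCPA contrasts. Of all 16304 gene models tested, 4852 were called in RT vs RU, 3528 in ST vs SU, 41 in RT vs ST and 40 in RU vs SU. Their overlap was not counted, so nothing is read from the overlap of the 274. Over all 274, the log2 fold change had a median of 0.017 in RT vs RU (5th to 95th percentile -0.24 to 0.29) and of 0.034 in ST vs SU (-0.18 to 0.25).

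The 2 called in both were also the 2 with the highest MCPA difference averaged over populations. Ah.12g059550 had 121, 107 and 117 CPM in RT and 109, 119 and 122 CPM in ST plants, against 91.1, 89.9 and 92.7 CPM in RU and 92.5, 93.2 and 91.8 CPM in SU plants. All 6 treated plants lay above all 6 untreated plants, and the untreated plants spanned less than 4 CPM. The log2 fold change was 0.33 (SE 0.09, adjusted p = 0.018) in RT vs RU and 0.34 (SE 0.09, adjusted p = 0.0223) in ST vs SU, by edgeR.

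Ah.16g104080 had 78.0, 68.4 and 68.3 CPM in RT and 75.8, 78.9 and 76.5 CPM in ST plants, against 57.9, 58.9 and 59.2 CPM in RU and 56.7, 57.6 and 66.4 CPM in SU plants. The treated plants again all lay above the untreated ones, of which SU S116 came nearest to them. Its log2 fold change was 0.29 (SE 0.10, adjusted p = 0.0444) in RT vs RU and 0.36 (SE 0.10, adjusted p = 0.0242) in ST vs SU, by edgeR.

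At the other end stood Ah.02g128130, with 259, 249 and 296 CPM in RT and 268, 295 and 279.6 CPM in ST plants, against 325, 344 and 343 CPM in RU and 329, 305 and 339 CPM in SU plants. All treated plants lay below all untreated plants, although its log2 fold changes of -0.33 (SE 0.12, adjusted p = 0.0604) in RT vs RU and -0.20 (adjusted p = 0.249) in ST vs SU did not pass edgeR's test. Ah.02g118010 had 126, 133 and 134 CPM in RT and 165, 159.6 and 140.1 CPM in ST plants, against 177, 169 and 156 CPM in RU and 162, 175 and 175 CPM in SU plants. RT plants were the 3 lowest of the 12, while the ST plants overlapped both untreated groups. It fell in RT vs RU (log2 fold change -0.35, SE 0.11, adjusted p = 0.0324 by edgeR), and had -0.14 (adjusted p = 0.398) in ST vs SU.

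**Figure D4:**
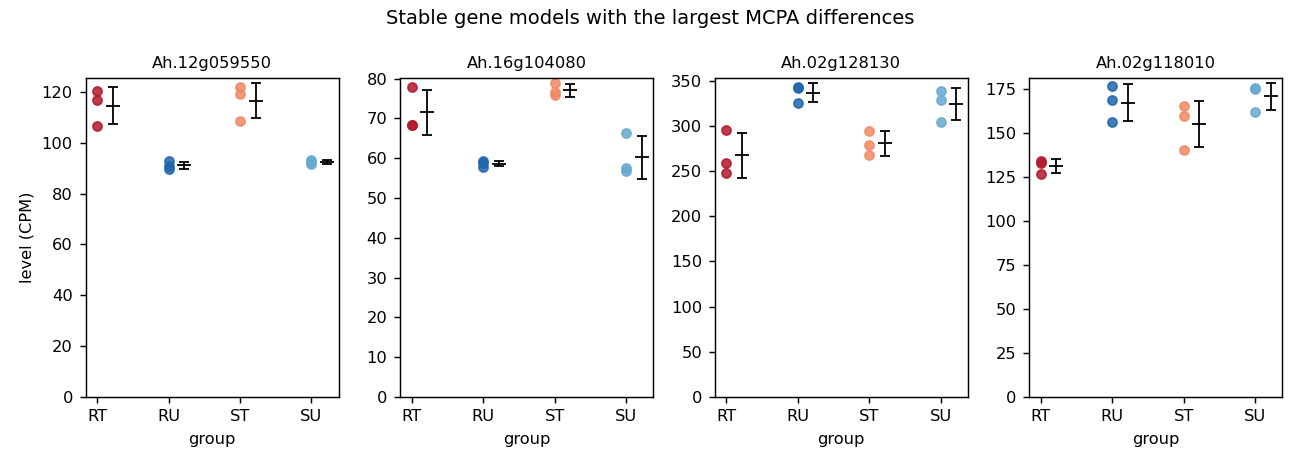
Level (CPM, vertical axis from 0) by group of the stable gene models with the 2 highest and 2 lowest MCPA differences. Points are plants, and the black dash and bars beside them give the mean and SD of 3 plants. For Ah.12g059550 the treated plants lie between 107 and 122 CPM and the untreated plants between 89.9 and 93.2 CPM.

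Sorting plants by treatment left an order inside the 1.4-fold limit for few gene models. All 6 treated plants lay above all 6 untreated plants for 11 stable gene models, 4.01% (background 12.1% of all tested), and below them for 3, 1.09% (background 10.7%). Among the other gene models within the level limits these shares were 17.9% and 19%. With the rule applied anew without ST S13 and SU S116, treated and untreated plants were apart in either direction for 84 of 513 gene models, 16.4% (background 35.4% at 10 plants). With all 12 plants this held for 14 of 274, 5.11% (background 22.8%). The background share was thus also higher without both plants. Whether this came from the smaller number of plants or from which plants were left out was not tested. The rule capped the gap between treated and untreated plants. Nothing is therefore read from the lower shares of the stable gene models, with 12 plants or with 10. In a principal component analysis of the 274, the first component held 29.4% of the variance, against 41.8% over all gene models tested. On it, treated plants scored 0.71 to 1.35 and untreated plants -1.49 to -0.63. The same values made the choice of the 274, so these scores are a description. The second component held 17.3%, against 24.8% over all gene models tested. It set ST S13 (-1.66) and SU S116 (-1.73) apart from the other plants (-0.46 to 0.94).

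By direction, 157 of the 274 had a higher mean log2 level in treated plants and 117 a lower one, and 198 had the same sign in RT vs RU and in ST vs SU. These counts were not made over all gene models tested, so nothing is read from them. The MCPA difference averaged over populations ran between -0.27 and 0.33, with a median size of 0.098, against 0.47 for the other 3050. The rule capped this difference in the 274, so nothing is read from that gap. In the map of deviations, the order by this difference shows the gradual passage between both ends.

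**Figure D5:**
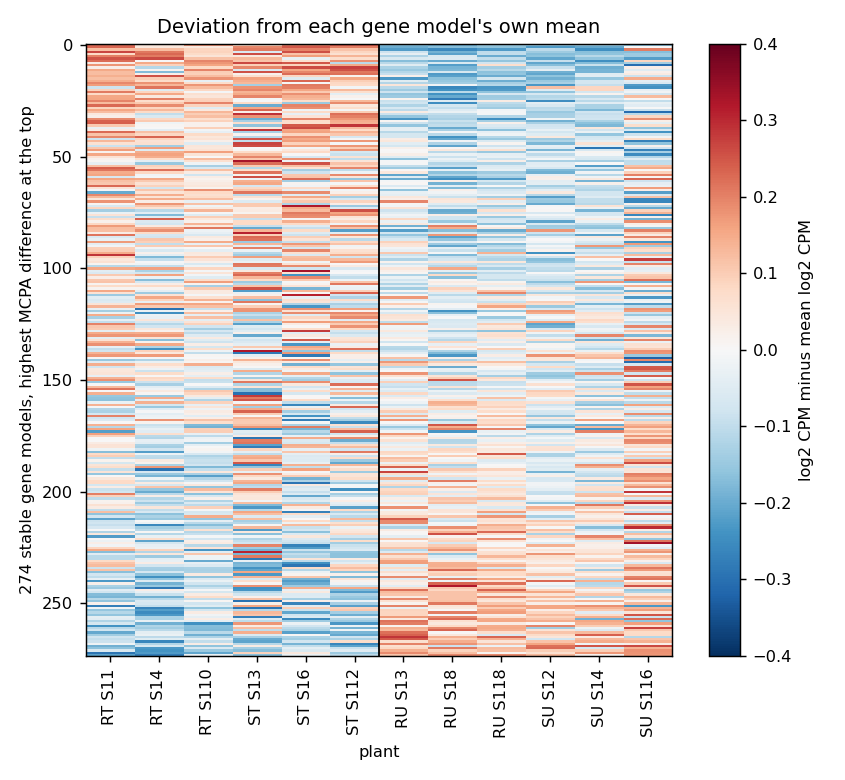
Deviation of log2 CPM from each gene model's own mean (color, clipped at 0.4 in size) for the 274 stable gene models (rows, ordered by MCPA difference) in 12 plants (columns, treated plants left of the line). The top rows are red in treated plants and the bottom rows in untreated plants. The median size of the deviation was largest in ST S13 (0.12) and SU S116 (0.11), against at most 0.097 in the other plants.

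Differences between populations were smaller than MCPA differences in the 274 (median sizes 0.068 and 0.098). The same order held in the other 3050 gene models within the level limits (0.18 and 0.47), so it is not particular to the 274. In RT vs ST, edgeR called 0 of the 274 higher (background 0.092%) and 0 lower (background 0.159%), with 12 at an unadjusted p under 0.05 (background 12.2%), and DESeq2 called 1 (background 2.61%). In RU vs SU, edgeR called 0 higher (background 0.135%) and 0 lower (background 0.11%), with 10 at an unadjusted p under 0.05 (background 9.96%), and DESeq2 called 0 (background 2.46%). By edgeR the population contrasts called few gene models anywhere, and by DESeq2 more. The rule capped these differences as well, so nothing is read from either count. For the interaction, the difference between both MCPA contrasts, edgeR called 0 (background 0.0123%), with 5 at an unadjusted p under 0.05 (background 6.13%), and DESeq2 called 0 (background 1.11%). The plants of both populations were apart between treatments in opposite directions for 2 of the 274, 0.73% (background 0.196%).

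All plants of 501 lay above all plants of 511 for 2 stable gene models, 0.73% (background 0.521%), and below them for 0 (background 0.552%). These 2, named after their values were seen, were Ah.02g125930, with 166, 157 and 165 CPM in RT, against 152, 131 and 134 CPM in ST plants, and 161, 154 and 154 CPM in RU, against 143, 140.5 and 143 CPM in SU plants, and Ah.03g136930. For Ah.03g136930 the levels were 123, 119 and 117.7 CPM in RT, against 102, 104 and 110.3 CPM in ST plants, and 112.3, 119.9 and 119 CPM in RU, against 102, 107 and 112.01 CPM in SU plants. In Ah.02g125930 the lowest 501 plant, RU S18, and the highest 511 plant, ST S13, were less than 2 CPM apart. The margin was thinner still in Ah.03g136930, between RU S13 at 112.3 CPM and SU S116 at 112.01 CPM.

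The highest population difference averaged over treatments, 0.21 on the log2 scale, was that of Ah.01g018640, with 157, 158 and 166 CPM in RT, against 125, 135 and 156 CPM in ST plants, and 141, 159.6 and 148 CPM in RU, against 131, 128 and 129.8 CPM in SU plants. RU plants all lay above SU plants, while ST S112 reached the range of the 501 plants. Ah.04g153390 followed at 0.19, with 83.5, 90.5 and 89.8 CPM in RT, against 80.9, 74.0 and 73.6 CPM in ST plants, and 86.3, 81.2 and 85.7 CPM in RU, against 84.7, 71.0 and 69.1 CPM in SU plants. SU S12 was above the lowest RT plant, so its populations overlapped.

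The lowest difference, -0.19, was that of Ah.08g210750, with 166, 163 and 177 CPM in RT, against 201, 185 and 178 CPM in ST plants, and 161, 149 and 155 CPM in RU, against 167, 177 and 198 CPM in SU plants. RT plants lay below ST plants, and RU plants below SU plants, but RT S110 was above SU S12. Ah.09g237340, also at -0.19, had 100.4, 83.4 and 96.3 CPM in RT, against 115.8, 116.3 and 115 CPM in ST plants, and 94.4, 99.2 and 104 CPM in RU, against 97.9, 96.6 and 116.03 CPM in SU plants. The ST plants stood above all RT plants, and in the untreated plants SU S116 alone was higher than every RU plant. The population difference of all 274 ran between -0.19 and 0.21, with a median size of 0.068, against 0.18 for the other 3050. A size under 0.1 in both the population and the MCPA difference was found for 89 stable gene models (32.5%) and for 53 of the others (1.74%). The rule capped both differences in the 274, so nothing is read from these gaps between the sets.

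The ratio limit was also applied to 6 plants at a time, with the level limits and the scaling taken from all 12. Applied to the 6 plants of 501, the ratio limit took in 899 gene models, and 383 of them (42.6%) were also inside it in the 6 plants of 511, against 16.9% of all 3324. Chosen in 511, 383 of 563 (68%) were inside it in 501, against 27% of all. Of 964 chosen in treated plants, 735 (76.2%) were inside it in untreated plants, against 46.2% of all, and of 1535 chosen in untreated plants, 735 (47.9%) were inside it in treated plants, against 29% of all.

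The stable gene models were spread over the identifiers. Each of the 17 numbers that follow Ah. in the identifiers held at least 1, and the share of gene models within the level limits that were stable ran between 4% for number 11 and 11.9% for number 10. Identifiers of 8 stable gene models were next to each other in 4 pairs. In the count table of the de novo transcriptome alignment, 3.48% of the 3221 transcripts within the same level limits met the ratio limit, but its identifiers differ, so the stable gene models could not be looked up there.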

How the data were processed

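The authors aligned the trimmed reads (fastp) of 12 leaf libraries with STAR to the smooth pigweed genome and with Bowtie2 to a de novo transcriptome, and deposited a table of whole-number counts per gene model and one per transcript, with no normalization. SAMtools and featureCounts are also named in the submitters' processing notes. For strand and for reads with several matches, the setting is not given in the sources used here. Counts of near-identical copies are therefore uncertain. The long-read pool was not analysed here.

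From the counts, CPM was computed with edgeR 4.0.16 in R 4.3.3, with default TMM factors on gene models having any count. Contrasts used filterByExpr (minimum count 10, minimum total 15), robust glmQLFit and glmQLFTest on all 12 libraries with 1 mean per group, and Benjamini-Hochberg adjustment over all 16304 tested. Principal components were taken on centered log2 CPM. SDs are over plants. The scripts were tested on simulated data. Alternatives included DESeq2 1.42.0, other scalings, limits and filters, and fewer plants.

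The members of the set, the lists and the rules were chosen with earlier results of these data known. Named gene models are the 6 of lowest ratio, the 3 most abundant, the 2 on each side of the ratio limit, and the 2 highest and 2 lowest for the MCPA and the population difference. Sums of reads limit precision through counting error only.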

Additional observations from a re-analysis of the deposited data

Results flagged for a closer look

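In 2 stable gene models, named after their values were seen, the plants of both populations were apart between treatments, in opposite directions. This was 0.73% of the 274, against 0.196% of all gene models tested. Ah.07g196400 had 70.9, 61.7 and 71 CPM in RT, against 74.7, 81.8 and 80.8 CPM in RU plants, and 81.4, 84.8 and 79.6 CPM in ST, against 73.3, 73.8 and 78.9 CPM in SU plants. Every RT plant was below every RU plant and every ST plant above every SU plant. The interaction was -0.342 on the log2 scale (SE 0.131, adjusted p = 0.706, edgeR). Ah.03g136280 had 96, 97.3 and 99.6 CPM in RT, against 111.8, 106 and 108 CPM in RU plants, and 102, 101 and 100.5 CPM in ST, against 90.5, 99.1 and 80.1 CPM in SU plants. The RT plants were again all below the RU plants and the ST plants above the SU plants. Its interaction was -0.327 (SE 0.136, adjusted p = 0.767, edgeR). Neither difference passed the test, and both gene models were chosen by values of these same plants. No test for a single outlying plant within a group was run on 3 plants.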

How the results depend on the processing

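The number of stable gene models, 274, was 61 with no normalization factors, 513 without ST S13 and SU S116, 93 at a limit of 1.3, 470 at 1.5, 583 with a mean of at least 20 CPM and 102 with at least 100 CPM. Over 6 plants it was 899 (501), 563 (511), 964 (treated) and 1535 (untreated). The stable share of features within the level limits was 8.24%, and 3.48% in the de novo table. The number stayed within 1.5 times 274 under DESeq2's median-of-ratios scaling (272, 269 of them shared), upper-quartile scaling (283, 232 shared) and, in an alternative chosen after seeing the data, scaling to the stable gene models themselves (281, 252 shared). In place of 14 with treated and untreated plants apart, with the rule applied anew each time, there were 5 with no factors, 84 without ST S13 and SU S116, and 15 to 38 when 1 plant was left out. The median ratio was 1.66 with no factors. The 13 calls in RT vs RU became 3 without the count filter, 0 with a log2 fold limit of 2, 36 by DESeq2, 31 in the 6 libraries of 501 alone, 37 without ST S13 and SU S116, and 0 (without RU S118) to 27 (without ST S13) with 1 plant left out. The 4 calls in ST vs SU became 2, 0, 26, 0 (in the 6 libraries of 511) and 8 under these settings, and 0 (without SU S12 or SU S14) to 8 (without ST S13). DESeq2 called 1 in RT vs ST, and its background was higher too, at 36.3% of gene models in RT vs RU and 29.6% in ST vs SU. The causes were not tested. Shares over all gene models were not computed without the count filter, with the fold limit, or in 6 libraries alone. They are also missing for the 8 calls in ST vs SU without ST S13. For plants apart, they are missing with no factors and with 1 plant left out. Nothing is read from these counts. Of 378 ratios of 21 named gene models under alternatives, 28 moved by more than the spread, 18 of them with no factors. No paired analysis was possible because the groups compared share fewer than 2 plant numbers.

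With 3 plants per group, edgeR's dispersion estimates for single gene models are drawn toward those of all gene models. Written as a biological CV, these estimates had a median of 13.3% for the stable gene models. That was above their median observed CV of 8.66% over all 12 plants, and why it was so was not tested. CPM states shares of a corrected total, and a change in RNA per cell that all gene models share would not be seen.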
